A study of Mus musculus with 12 samples.

Results

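The interferon-stimulated genes described here are 38 mouse genes, chosen by symbol, that cells are known to switch on after exposure to interferon. Each was read from a probe set that the array annotation pairs with its symbol alone. Where a gene had several such probe sets, the brightest over the 12 arrays was taken. Of the 38 genes, 34 could be read in this way, among 19938 genes on the table. Isg15, Gbp2 and Igtp are read by probe sets that also carry the symbol of another gene, and Ifi44 is unnamed in the annotation used here, so these genes are not analysed further. The Ifitm genes were left out of the set by its definition.

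Expression was measured on Affymetrix arrays in KY-2 and KY-1, 2 natural killer (NK) cell lines of the mouse. NK cells are innate lymphocytes that kill infected or transformed cells. All 4 groups were p53KO, grew in cRPMI with 200 U/mL hIL-15 and were sorted for GFP after transduction. The groups were KY-2 with GFP-P2A-FLAG-Myb (3 arrays), KY-2 with GFP (2 arrays), KY-1 with GFP-P2A-FLAG-Myb (4 arrays) and KY-1 with GFP (3 arrays), called Myb and GFP cells below. The Myb transcription factor came from a vector, so its level is that of overexpression. Each comparison between KY-2 and KY-1 sets one line against one other line.

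Interferons act through surface receptors and the kinases JAK1, JAK2 and TYK2. Type I interferon (alpha and beta) acts through STAT2 and IRF9 on a DNA element called the ISRE, and the induced genes block virus entry, copying and translation. Interferon gamma, which NK cells themselves secrete, acts on the GAS element and raises IRF1, the guanylate-binding proteins and the immunity-related GTPases.

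The promoters of these genes were searched for the ISRE, on which type I interferon acts, and for the GAS element. RefSeq (GRCm38.p6) gives a promoter, 250 bases before to 50 after the start, for 29 of the 38 listed genes. A search on both strands for the ISRE core, GAAA and again GAAA with any 2 bases between them, found a match in 16 of these 29 promoters (55.2%), against 3.99% of 27025 genes. The GAS letters TTCNNNGAA were found in 8 of the 29 (27.6%), against 9.55% of all genes. Cmpk2, Oasl2 and Irf1 were among the genes whose promoters had no ISRE match. The stretches below come only from promoters with a match, of genes described in the results. Capitals mark the ISRE letters on either strand. Overlapping matches run together in Bst2, Gbp3 and Irgm1.
Bst2, chr8:71537567-71537622, minus strand: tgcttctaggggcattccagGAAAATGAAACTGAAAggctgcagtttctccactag
Gbp3, chr3:142559979-142560034, plus strand: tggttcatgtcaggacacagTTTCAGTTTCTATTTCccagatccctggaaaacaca
Irgm1, chr11:48871421-48871470, minus strand: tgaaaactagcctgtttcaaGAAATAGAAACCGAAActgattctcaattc
Trim30a, chr7:104465200-104465249, minus strand: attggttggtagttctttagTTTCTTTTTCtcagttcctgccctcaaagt
Rsad2, chr12:26456543-26456592, minus strand: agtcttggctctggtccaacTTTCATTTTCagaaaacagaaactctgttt
Stat2, chr10:128270256-128270305, plus strand: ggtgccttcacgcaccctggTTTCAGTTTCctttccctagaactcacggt

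Values are deposited log2 levels from RMA, whose array medians lay between 5.31 and 5.42. Each probe set has its own brightness. Comparisons of a level with the median gene or with a log2 level of 8 are therefore rough, as are sums over markers. The table has no detection calls, and Oas2, Oas3, Ifit1, Ifit3 and Mx1 lay below the median gene (5.56) in every replicate, so the sizes of their differences are uncertain. Among the KY-1 arrays, Myb arrays 3 and 4 and GFP arrays 1 and 2 differed by less than other arrays of a group and were averaged, each pair counting as 1 replicate. That left 3 Myb and 2 GFP replicates per line. NK cell markers were bright, with 7 to 9 of 10 above a log2 level of 8 in each group. Markers of plasmacytoid dendritic cells (0 or 1 of 6 above 8), macrophages and monocytes (1 of 10) and B cells (0 of 7) were mostly dim. The Myb probe set read 9.80, 9.67 and 9.75 in KY-2 Myb cells against 5.002 and 5.10 in KY-2 GFP cells. In KY-1 it read 9.59, 9.57 and 9.54 in Myb cells against 7.94 and 8.04 in GFP cells. Both fit the labels. Myb thus rose by 4.69 in KY-2 and 1.58 in KY-1 on the log2 scale. The average over the lines and the difference between them therefore join Myb steps of unlike size.

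The first question was whether an interferon response moves with Myb. A few members did and most did not. Averaged over both lines with equal weight, 4 of the 34 genes rose (Cmpk2, Usp18, Bst2 and Gbp3) and 1 fell (Ddx58), at an adjusted p under 0.05 from limma. That is 14.7% of the members, against 3.1% of all 19938 genes (1.52% higher and 1.58% lower). The median change of the 34 genes was 0.04 on the log2 scale, against 0.01 for all genes, with 23 values above 0 and 11 below. Beside these changes, 4 of 10 NK markers fell and 0 rose in the same average, with a median of -0.25. Among those that fell, Klrb1c and Il2rb had values below 0 in both lines. Ncr1 changed by -1.96 in KY-1 and -0.10 in KY-2, and Prf1 by 0.18 in KY-1 and -0.82 in KY-2. Of 10 T cell markers 1 rose in the average, Cd3g by 1.21 ± 0.15 (SE, limma adjusted p = 0.00112). Cd3g changed by 2.52 in KY-1, where its mean GFP level of 4.62 was below the median gene, and by -0.11 in KY-2. Cd3d changed by -0.73 in KY-2 (adjusted p = 0.00391) and by 0.12 in KY-1. Of 6 plasmacytoid dendritic cell markers 1 rose in the average, Cox6a2 by 0.42 ± 0.07 (adjusted p = 0.00549). The summed intensity of the plasmacytoid dendritic cell markers was 445 to 476 in KY-2 Myb cells against 390 to 410 in KY-2 GFP cells. In KY-1 it was 458 to 501 in Myb cells against 435 to 445 in GFP cells. Tcf4 and Cox6a2 made up most of these sums, and the mean levels of Siglech and Ccr9 lay between 4.02 and 4.68 in every group. Of 10 macrophage and monocyte markers and 7 B cell markers 0 passed in limma, with 0 and 1 at an unadjusted p under 0.05. The part of these markers in the result was not tested, and in such bulk samples fewer cells of a type and less RNA per cell cannot be told apart.

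**Figure D1:**
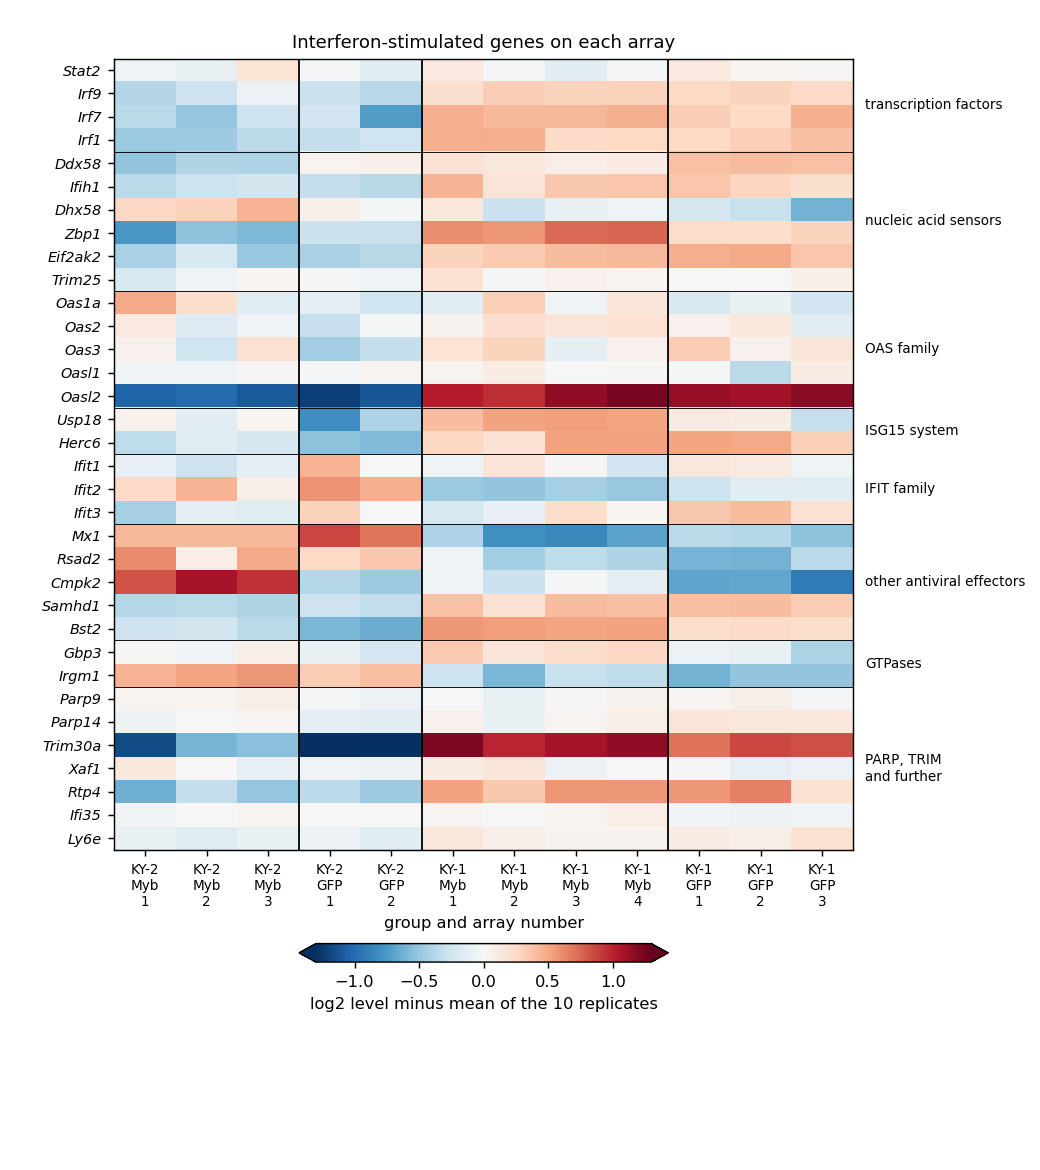
Log2 level of each of the 34 interferon-stimulated genes (rows, grouped by role) on each of the 12 arrays (columns, KY-2 Myb, KY-2 GFP, KY-1 Myb and KY-1 GFP), drawn as the deviation from the gene's mean over the 10 replicates, with larger values drawn in the end colours of the bar. The larger blocks of colour separate KY-2 from KY-1, while few rows separate Myb from GFP in both lines.

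Cmpk2, a mitochondrial nucleotide kinase that interferon induces, had the largest change among the 34 genes. Its level was 6.36, 6.62 and 6.49 in KY-2 Myb cells against 5.17 and 5.07 in KY-2 GFP cells. In KY-1 it was 5.51, 5.27 and 5.48 in Myb cells against 4.86 and 4.62 in GFP cells. Every Myb replicate was above every GFP replicate of its line, although the KY-1 levels and the KY-2 GFP levels were all below the median gene, which leaves the sizes of these differences uncertain. Cmpk2 rose by 1.37 ± 0.11 in KY-2 (SE, 2.58-fold, limma adjusted p = 5.21e-05) and by 0.68 ± 0.11 in KY-1 (1.60-fold, adjusted p = 0.0153). The average was 1.02 ± 0.08 (2.03-fold, adjusted p = 3.34e-05), and the difference between the lines of 0.69 ± 0.16 did not pass (adjusted p = 0.0895). Its call in KY-1 was lost without KY-1 GFP replicate 3 (adjusted p = 0.174), without Myb replicate 1 (0.0638) and without the averaged Myb arrays (0.066). The neighbouring gene Rsad2 encodes viperin, which makes a chain-terminating nucleotide against viral RNA synthesis. It changed by 0.14 ± 0.11 in the average (adjusted p = 0.666), with overlapping replicates in both lines.

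Of the ISG15 system, Usp18 rose. It removes the ubiquitin-like protein ISG15 from its targets and dampens type I interferon signalling at the receptor. Usp18 levels were 6.20, 6.01 and 6.17 in KY-2 Myb cells against 5.34 and 5.74 in KY-2 GFP cells. KY-1 Myb cells had 6.55, 6.67 and 6.67 against 6.25 and 5.84 in KY-1 GFP cells. The groups did not overlap in either line, and the average change was 0.59 ± 0.10 (SE, limma adjusted p = 0.00836). Within a single line it missed the threshold, at an adjusted p of 0.0548 in KY-2 and 0.097 in KY-1. Its mean KY-2 GFP level was below the median gene, so the size of its KY-2 change is uncertain. Herc6, the mouse ligase that attaches ISG15, changed by 0.12 ± 0.08 (adjusted p = 0.571).

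Bst2, also called tetherin, holds budding virus particles at the cell surface, and it rose slightly in Myb cells. It had levels of 10.21, 10.24 and 10.12 in KY-2 Myb cells against 9.88 and 9.84 in KY-2 GFP cells, and of 11.05, 11.02 and 11.001 in KY-1 Myb cells against 10.72 and 10.71 in KY-1 GFP cells. No replicates overlapped within a line, and the average change was 0.32 ± 0.05 (SE, 1.25-fold, adjusted p = 0.0066). The change was 0.33 ± 0.07 in KY-2 (adjusted p = 0.0395) and 0.31 ± 0.07 in KY-1 (adjusted p = 0.0946). The KY-2 call was lost when any replicate was left out, with adjusted p-values of up to 0.228 (without KY-2 GFP replicate 2). Samhd1, which depletes nucleotides, changed by -0.06 ± 0.06 and Mx1, a dynamin-like GTPase against influenza viruses, by -0.28 ± 0.09, and neither passed (adjusted p = 0.739 and 0.131).

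Among the interferon-inducible GTPases, Gbp3, a guanylate-binding protein, rose in the average by 0.34 ± 0.08 (SE, 1.26-fold, limma adjusted p = 0.0354). Its level was 7.31, 7.25 and 7.37 in KY-2 Myb cells against 7.21 and 7.07 in KY-2 GFP cells, and 7.64, 7.47 and 7.55 in KY-1 Myb cells against 7.21 and 6.88 in KY-1 GFP cells. The replicates of Myb cells lay above those of GFP cells in both lines, narrowly in KY-2. The average call held without KY-1 GFP arrays 1 and 2 or KY-1 Myb replicate 2. It was lost without any one of the 8 others, with adjusted p-values between 0.0577 and 0.144. The KY-1 change of 0.51 ± 0.11 had an adjusted p of 0.0496, which reached 0.357 without KY-1 GFP replicate 3. Irgm1, a regulator of the immunity-related GTPases, changed by 0.15 ± 0.07 (adjusted p = 0.388).

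The RNA sensor Ddx58 (RIG-I), a helicase that recognises viral RNA ends, was the member that fell. Ddx58 levels were 8.58, 8.71 and 8.70 in KY-2 Myb cells against 9.13 and 9.16 in KY-2 GFP cells. KY-1 Myb cells had 9.29, 9.25 and 9.20 against 9.49 and 9.48 in KY-1 GFP cells. All Myb replicates were below the GFP replicates of their line. The average change was -0.37 ± 0.05 (SE, limma adjusted p = 0.00341), with -0.49 ± 0.08 in KY-2 (adjusted p = 0.00554) and -0.24 ± 0.08 in KY-1 (adjusted p = 0.23). The KY-2 call was lost without GFP replicate 1 (adjusted p = 0.0622) or GFP replicate 2 (0.0633). The related helicases changed by 0.06 ± 0.07 for Ifih1 (MDA5) and 0.34 ± 0.10 for Dhx58 (LGP2), with adjusted p-values of 0.798 and 0.107.

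**Figure D2:**
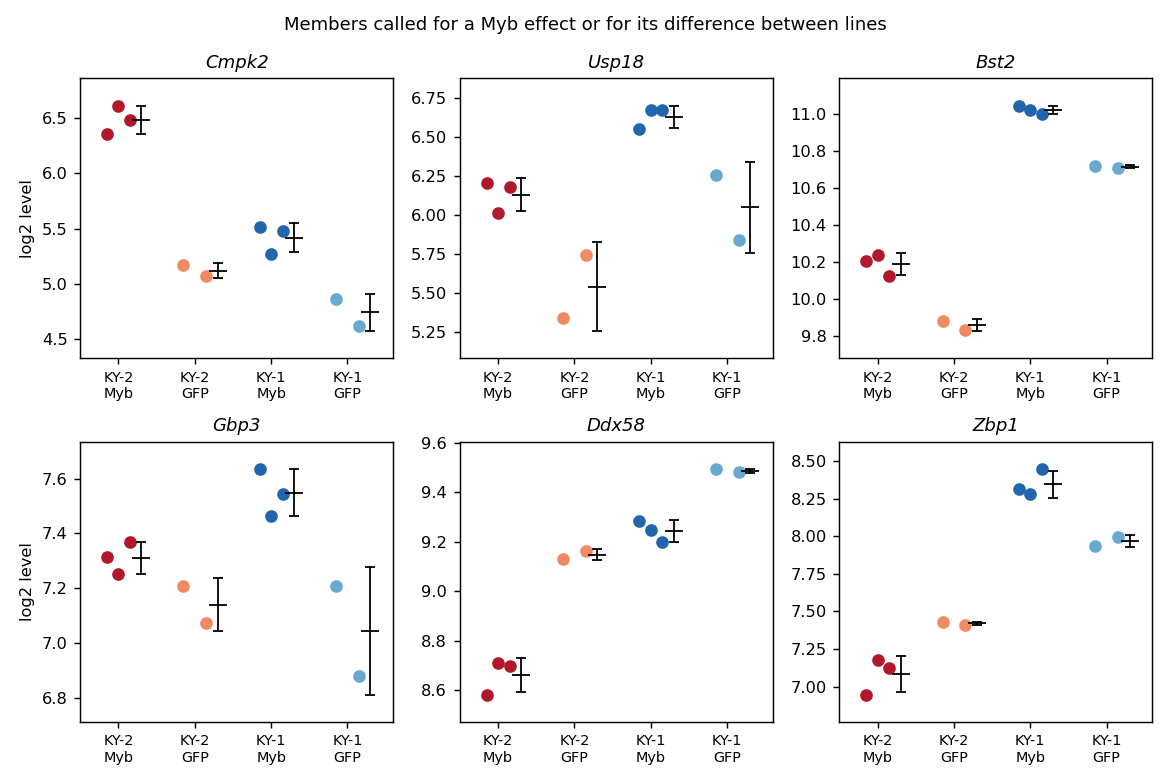
Log2 level in each replicate (points) with the group mean and SD (bars) for the members called in a Myb comparison, with Myb to the left of GFP in KY-2 and in KY-1. Cmpk2, Usp18, Bst2 and Gbp3 points of Myb cells lie above those of GFP cells in both lines, Ddx58 points lie below them, and Zbp1 points lie below in KY-2 and above in KY-1.

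Zbp1, a sensor of Z-form nucleic acid that can trigger necroptosis, was the 1 member whose Myb effect differed between the lines (2.94% of the 34 genes, against 0.843% of all genes, of which 0.381% lower and 0.461% higher in KY-2). It read 6.95, 7.18 and 7.13 in KY-2 Myb cells against 7.43 and 7.41 in KY-2 GFP cells. In KY-1 it read 8.31, 8.28 and 8.45 in Myb cells against 7.94 and 7.995 in GFP cells. The Myb replicates were thus all lower in KY-2 and all higher in KY-1. The changes were -0.34 ± 0.09 in KY-2 (SE, adjusted p = 0.0939) and 0.38 ± 0.09 in KY-1 (adjusted p = 0.0946), and their difference was -0.72 ± 0.13 (limma adjusted p = 0.0291). The call of the difference was lost in 7 of 17 alternative analyses, all of them leaving out 1 replicate: either GFP replicate of either line, KY-2 Myb replicate 3, KY-1 Myb replicate 1 or the averaged KY-1 Myb arrays. The adjusted p ran from 0.00241 to 0.141, the highest without KY-2 GFP replicate 1.

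The transcription factors of the response did not pass the test in any Myb comparison. In the average, Stat2 changed by 0.03 ± 0.07, Irf9 by 0.05 ± 0.07, Irf7 by 0.09 ± 0.09 and Irf1 by -0.04 ± 0.07 (SE, adjusted p between 0.742 and 0.907). STAT2 and IRF9 act together on the ISRE, IRF7 amplifies type I interferon production and IRF1 carries much of the gamma response. The other sensors, Eif2ak2 (the kinase PKR) and Trim25 (the ubiquitin ligase that activates RIG-I), changed by -0.03 ± 0.07 and 0.00 ± 0.07. All 5 members of the OAS family, which sense double-stranded RNA or resemble those that do, had values above 0, from 0.02 for Oasl2 to 0.32 for Oas1a, and 0 passed.

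The IFIT family has 3 genes on this list, of which Ifit1 encodes a protein that binds viral RNA caps and blocks translation. All 3 had values below 0 in the average, with -0.22 ± 0.10 for Ifit1, -0.29 ± 0.07 for Ifit2 and -0.37 ± 0.10 for Ifit3 (SE, limma adjusted p = 0.342, 0.0685 and 0.0715). Ifit2 read 7.75, 7.95 and 7.58 in KY-2 Myb cells against 8.09 and 7.96 in KY-2 GFP cells, and 7.02, 6.99 and 7.04 in KY-1 Myb cells against 7.29 and 7.35 in KY-1 GFP cells. Its Myb replicates were below the GFP replicates in both lines, by a narrow margin in KY-2. Trim30a, a TRIM family protein that restrains inflammatory signalling, had a value of 0.43 ± 0.11 in the average (adjusted p = 0.0734). The further genes Parp9, Parp14, Xaf1, Rtp4, Ifi35 and Ly6e lay between -0.03 and 0.10 in the average, and 0 of them passed.

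**Figure D3:**
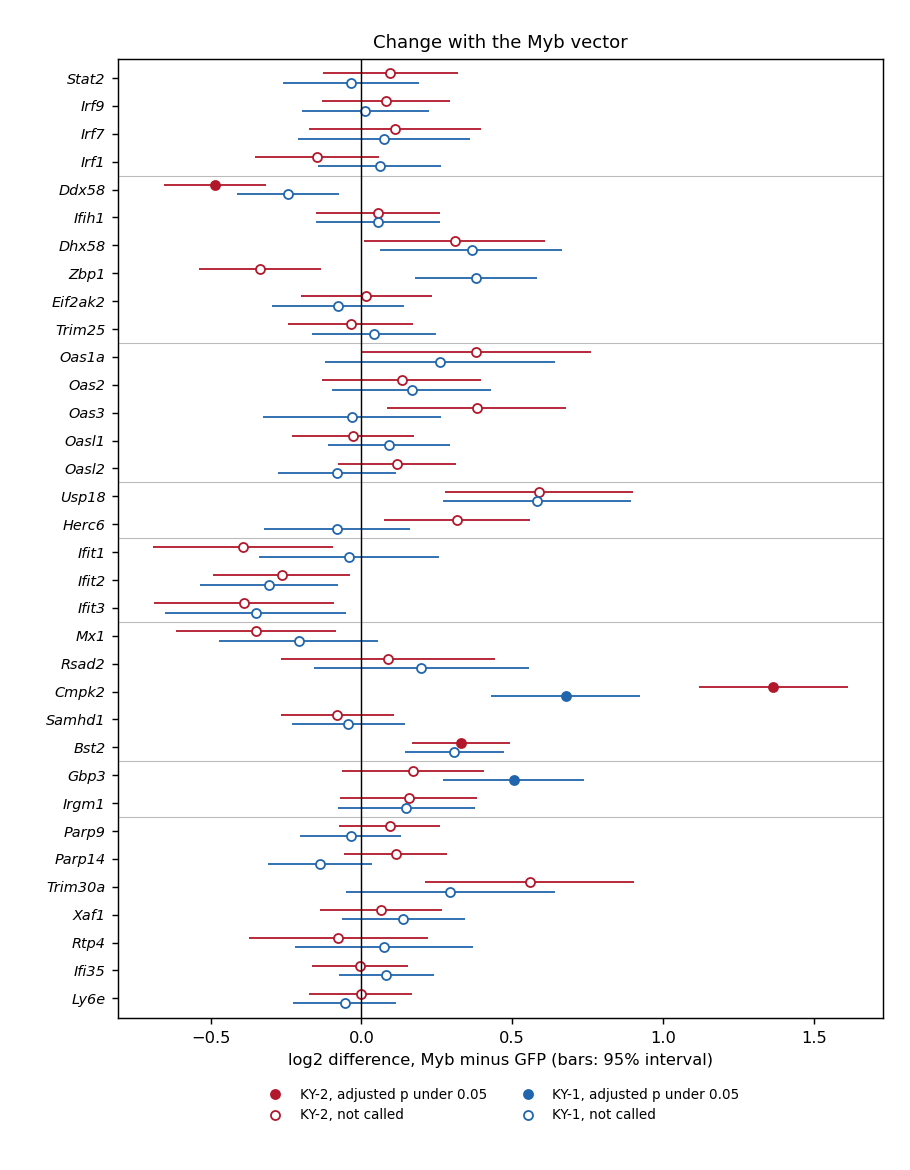
Change in log2 level, Myb minus GFP, of each of the 34 genes (rows, by role) in KY-2 and in KY-1, with bars of the 95% interval of the fit and filled points for calls at an adjusted p under 0.05. Most intervals cover 0, and Cmpk2 stands furthest to the right in both lines.

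Counted by line, 2 members rose and 1 fell in KY-2 (8.82%, against 2.83% of all genes, 1.28% higher and 1.55% lower), and 2 rose and 0 fell in KY-1 (5.88%, against 1.22%, with 0.612% in each direction). An unadjusted p under 0.05 was found for 13 of the 34 in KY-2, where 2630 of all 19938 genes had one, and for 9 in KY-1, where 2192 had one. The KY-1 count fell to 0 in a fit of KY-1 arrays alone, without KY-1 GFP replicate 3, without KY-1 Myb replicate 1 and without the averaged KY-1 Myb arrays 3 and 4. It fell to 1 without KY-1 Myb replicate 2 or any single KY-2 replicate. The KY-2 count fell to 1 without KY-2 GFP replicate 1. Replicates of Myb and GFP cells did not overlap, in the same direction in both lines, for 5 members that were higher (Usp18, Cmpk2, Bst2, Gbp3 and Trim30a) and 3 that were lower (Ddx58, Ifit2 and Ifit3). These are 14.7% and 8.82% of the set, against 3.37% and 3.31% of all genes. For the 29 genes not called in the average, every 95% interval lay within 2-fold and 27 lay within 1.5-fold, with outer limits of -0.58 (Ifit3) and 0.67 (Trim30a). Brightness bears on these counts: among the 27 members brighter than the median gene, 5 rose and 2 fell in the average (25.9%), against 9.44% of the 9969 genes as bright (4.59% higher and 4.85% lower).

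The rest of the interferon pathway was examined through 87 further genes. In the average 2 rose and 4 fell, which is 6.9% against 3.1% of all genes. Ifng, interferon gamma itself, read 9.91, 9.84 and 9.94 in KY-2 Myb cells against 10.88 and 10.66 in KY-2 GFP cells, and 7.93, 7.90 and 8.03 in KY-1 Myb cells against 8.57 and 8.42 in KY-1 GFP cells. The Myb cells were lower in both lines, by -0.87 ± 0.09 in KY-2 (SE, limma adjusted p = 0.00035) and -0.54 ± 0.09 in KY-1 (adjusted p = 0.019). The KY-1 call was lost without KY-1 GFP arrays 1 and 2 (0.193), GFP replicate 3 (0.0756), Myb replicate 1 (0.0682) or Myb replicate 2 (0.0631). Ifngr1, the ligand-binding chain of its receptor, fell by 0.48 in the average (SE 0.06, adjusted p = 0.00133) and by 0.70 in KY-1 (SE 0.09, adjusted p = 0.00274). In KY-2 Ifngr1 changed by -0.257 and was not called, at 7.618, 7.686 and 7.625 in Myb cells against 7.996 and 7.803 in GFP cells.

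Of the genes that interferon gamma induces, Iigp1, an immunity-related GTPase, rose in the average by 0.46 ± 0.07 (SE, limma adjusted p = 0.00596). It read 7.95, 8.12 and 7.96 in KY-2 Myb cells against 7.26 and 7.30 in KY-2 GFP cells, and 9.34, 9.14 and 9.48 in KY-1 Myb cells against 9.17 and 9.10 in KY-1 GFP cells. The groups were apart in KY-2 and overlapped in KY-1. Ifi203, a member of the interferon-inducible p200 family, changed by -0.41 ± 0.07 (adjusted p = 0.00911, and 0.0544 without KY-1 GFP arrays 1 and 2). Rnf213, a large ubiquitin ligase, rose by 0.27 ± 0.05 (adjusted p = 0.0196). Slfn2, a Schlafen family gene, was called lower in KY-1, with a change of -0.55. It read 7.93, 8.01 and 7.97 in KY-1 Myb cells against 8.43 and 8.62 in KY-1 GFP cells. This call was lost in 8 of 18 alternative analyses. In KY-2 the Slfn2 groups overlapped, at 6.32, 6.26 and 6.34 in Myb cells against 6.57 and 6.24 in GFP cells. Among the other ligands, Ifnz, a type I interferon gene, read 6.55, 6.62 and 6.63 in KY-2 Myb cells against 5.95 and 5.91 in KY-2 GFP cells, and 6.64, 6.996 and 7.15 in KY-1 Myb cells against 6.94 and 6.77 in KY-1 GFP cells. The groups were apart in KY-2 and overlapped in KY-1. Ifnz rose by 0.67 ± 0.13 in KY-2 (adjusted p = 0.0172), a call lost without KY-2 GFP replicate 1 (0.131), GFP replicate 2 (0.121), Myb replicate 2 (0.0588) or Myb replicate 3 (0.056). The average for Ifnz was 0.37 ± 0.09 (adjusted p = 0.0528). The beta interferon gene Ifnb1 changed by 0.11 ± 0.11 (adjusted p = 0.737), and of the type I receptor chains Ifnar1 changed by -0.16 ± 0.07 and Ifnar2 by 0.03 ± 0.05, which did not pass. The 9 receptor signalling genes, 10 upstream sensors and adaptors and 10 inhibitors had 0 calls in the average, in KY-2 and in KY-1.

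More members differed between the lines than between the vectors. With GFP, 6 of the 34 members were higher and 17 lower in KY-2 than in KY-1 (67.6%, against 28.9% of all genes, of which 13.6% were higher and 15.2% lower). With Myb, 6 were higher and 14 lower (58.8%, against 31.6%, with 14.7% higher and 16.9% lower). The share of lower members exceeded the background in both comparisons, and that of higher members was near it. The median difference was -0.20 with GFP and -0.17 with Myb on the log2 scale, against -0.04 and -0.01 for all genes. Among the 27 members brighter than the median gene, 16 were lower and 3 higher with GFP (70.4%, against 54.8% of genes as bright, with 29.8% lower and 25% higher), and 16 and 3 with Myb (70.4%, against 59.5%, with 33.7% lower and 25.8% higher). The 2 comparisons share no replicates. All 20 members called with Myb were called in the same direction with GFP. Over all genes, 2214 were higher and 2316 lower in both comparisons and 9 were opposite, of 6305 called with Myb.

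**Figure D4:**
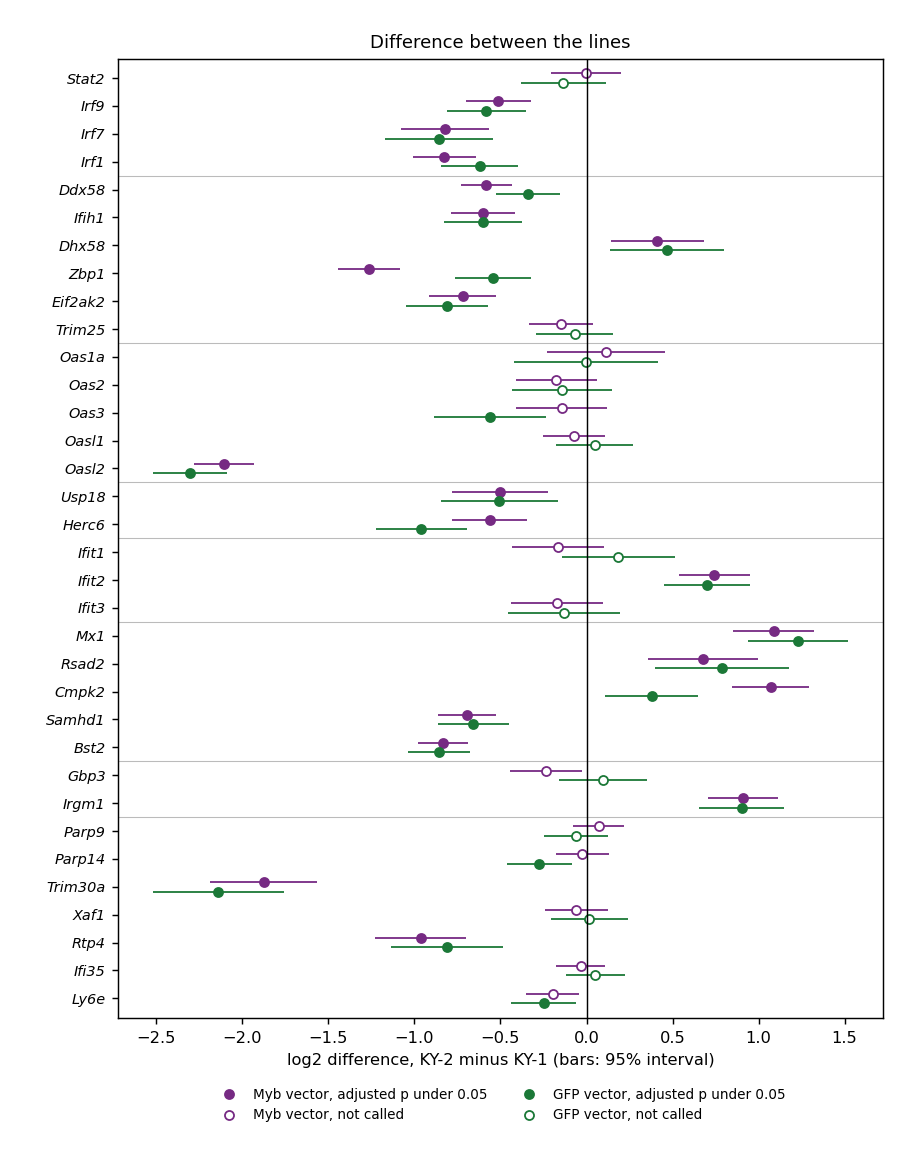
Difference in log2 level, KY-2 minus KY-1, of each of the 34 genes (rows, by role) in Myb cells and in GFP cells, with bars of the 95% interval of the fit and filled points for calls. Oasl2 and Trim30a lie furthest below 0 and Mx1 and Irgm1 are among those above it.

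Some cell type markers also differed between the lines, where 28.9% of all genes were called with GFP and 31.6% with Myb. Of the NK markers 80% were called with either vector, and of the T cell markers 50%. The other lists were near or below the share of all genes. These were plasmacytoid dendritic cell markers (33.3% with either vector), macrophage and monocyte markers (20% with GFP, 10% with Myb) and B cell markers (28.6% and 0%). Of the 10 T cell markers tested, 4 were called higher and 1 lower in KY-2 with GFP, and 5 higher and 0 lower with Myb. Cd3e was the lower one, at a mean of 5.32 in KY-2 GFP cells and 6.22 in KY-1 GFP cells. Cd4, Cd5, Cd6, Cd8b1 and Themis had mean levels below the median gene in every group. Of the 10 T cell markers, 2 lay above a log2 level of 8 in KY-2 (Cd3g and Cd28) and 0 in KY-1. Their summed intensity was 5577 to 5985 in KY-2 Myb cells and 462 to 499 in KY-1 Myb cells, and 6084 to 6319 in KY-2 GFP cells and 376 to 381 in KY-1 GFP cells. Cd3g, a CD3 subunit, made up most of the KY-2 sums, at 12.2 ± 0.06 in KY-2 Myb cells (SD, n = 3) and 12.3 ± 0.04 in KY-2 GFP cells (SD, n = 2). On these arrays no marker has a value of 0. Of the 6 markers of plasmacytoid dendritic cells, which are known for type I interferon, 1 was called higher and 1 lower in KY-2 with either vector. The 10 macrophage and monocyte markers summed to 1661 to 1687 in KY-2 Myb cells and 1511 to 1757 in KY-1 Myb cells. With GFP they summed to 1350 to 1407 in KY-2 cells and 1780 to 1832 in KY-1 cells. Ccr2 made up most of each sum, so the sums mainly follow this 1 gene. Its mean level was 10.5 in KY-2 Myb, 10.2 in KY-2 GFP, 10.4 in KY-1 Myb and 10.6 in KY-1 GFP cells. Fcgr1, an Fc receptor on this list, was lower in KY-2 by -1.43 ± 0.12 with GFP (SE, adjusted p = 3.58e-06) and -1.32 ± 0.09 with Myb (adjusted p = 1.06e-06). Of the 10 NK markers, 2 were higher and 6 lower in KY-2 with either vector. They summed to 15919 to 16385 in KY-2 Myb cells and 18972 to 20265 in KY-1 Myb cells, and to 18631 to 19392 in KY-2 GFP cells and 21018 to 21414 in KY-1 GFP cells. Ncr1, the NK receptor NKp46, was 19.5-fold lower in KY-2 with GFP (adjusted p = 2.51e-08), where its mean KY-2 level was below the median gene. Of 7 B cell markers, 2 were lower in KY-2 with GFP and 0 passed with Myb. The part of these markers in the line differences was not tested.

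Oasl2, a ubiquitin-like relative of the OAS enzymes, had the largest difference between the lines. Its level was 6.02, 6.06 and 5.97 in KY-2 Myb cells against 8.09, 8.02 and 8.26 in KY-1 Myb cells. With GFP it was 5.85 and 5.95 in KY-2 cells against 8.17 and 8.24 in KY-1 cells. The lines were far apart with either vector, by -2.30 ± 0.10 with GFP (SE, 4.94-fold lower in KY-2, limma adjusted p = 1.72e-08) and -2.11 ± 0.08 with Myb (4.30-fold lower, adjusted p = 5.28e-09). Its neighbour Oasl1, a relative that limits IRF7 translation in mice, differed by 0.05 ± 0.10 with GFP and -0.07 ± 0.08 with Myb (adjusted p = 0.787 and 0.585).

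Trim30a was close behind. It read 5.26, 5.81 and 5.88 in KY-2 Myb cells against 7.64, 7.41 and 7.53 in KY-1 Myb cells, and 5.12 and 5.06 in KY-2 GFP cells against 7.20 and 7.26 in KY-1 GFP cells. KY-2 GFP levels were below the median gene, so the size of the difference there is uncertain. The differences were -2.14 ± 0.17 with GFP (SE, limma adjusted p = 3.49e-06) and -1.88 ± 0.14 with Myb (adjusted p = 1.57e-06). Probe sets for Trim30a, the OAS, IFIT and GBP families can also read near-identical relatives.

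Of the transcription factors, 3 of 4 were lower in KY-2 with either vector, while 15.2% of all genes were lower with GFP and 16.9% with Myb. Irf7 read 5.80, 5.65 and 5.88 in KY-2 Myb cells against 6.63, 6.57 and 6.59 in KY-1 Myb cells, and 5.90 and 5.42 in KY-2 GFP cells against 6.44 and 6.61 in KY-1 GFP cells. The lines did not overlap, with differences of -0.86 ± 0.14 with GFP (SE, limma adjusted p = 0.000817) and -0.82 ± 0.12 with Myb (adjusted p = 0.000222). Irf9 differed by -0.58 ± 0.11 with GFP and -0.51 ± 0.09 with Myb, and Irf1 by -0.62 ± 0.10 and -0.83 ± 0.08. Stat2 differed by -0.13 ± 0.11 with GFP and 0.00 ± 0.09 with Myb and did not pass (adjusted p = 0.438 and 0.986).

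Among the sensors, Eif2ak2 was lower in KY-2, at 7.58, 7.80 and 7.51 in KY-2 Myb cells against 8.29, 8.34 and 8.42 in KY-1 Myb cells. With GFP it read 7.59 and 7.64 in KY-2 cells against 8.49 and 8.37 in KY-1 cells. No replicates of the lines overlapped, and the difference was -0.81 ± 0.11 with GFP (SE, limma adjusted p = 0.000177) and -0.72 ± 0.09 with Myb (adjusted p = 7.87e-05). Ifih1 differed by -0.60 with either vector, Ddx58 by -0.34 with GFP and -0.58 with Myb, and Zbp1 by -0.55 with GFP and -1.26 with Myb. Dhx58 went the other way, at 0.47 ± 0.15 with GFP (adjusted p = 0.0378) and 0.41 ± 0.12 with Myb (adjusted p = 0.0243). Its mean KY-1 GFP level was below the median gene, so the size of its GFP difference is uncertain. The GFP call for Ddx58 was lost without KY-1 GFP arrays 1 and 2 (0.0523) or KY-2 GFP replicate 1 (0.0641). The call for Dhx58 was lost in several such fits, with adjusted p of up to 0.268 with GFP (without KY-1 GFP replicate 3) and 0.0893 with Myb (without KY-1 Myb replicate 2).

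Both measured genes of the ISG15 system were lower in KY-2, while 15.2% of all genes were lower with GFP and 16.9% with Myb. Herc6 had 6.72, 6.89 and 6.84 in KY-2 Myb cells against 7.32, 7.24 and 7.57 in KY-1 Myb cells, and 6.52 and 6.48 in KY-2 GFP cells against 7.55 and 7.36 in KY-1 GFP cells. Its replicates were apart with both vectors, by -0.96 ± 0.12 with GFP (SE, limma adjusted p = 0.000111) and -0.56 ± 0.10 with Myb (adjusted p = 0.000999). Usp18 differed by -0.51 ± 0.16 with GFP and -0.50 ± 0.13 with Myb, and its GFP call was lost without KY-1 GFP arrays 1 and 2 (0.246) or KY-2 GFP replicate 1 (0.252). Bst2 was lower by -0.86 ± 0.08 with GFP (adjusted p = 1.28e-05) and -0.83 ± 0.07 with Myb (adjusted p = 2.51e-06), while Samhd1 differed by -0.66 ± 0.09 and -0.70 ± 0.08. Rtp4, a receptor chaperone that interferon induces, differed by -0.81 ± 0.15 with GFP and -0.96 ± 0.12 with Myb.

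A smaller number of members was higher in KY-2. Irgm1 read 8.93, 8.99 and 9.05 in KY-2 Myb cells against 8.21, 7.88 and 8.17 in KY-1 Myb cells, and 8.81 and 8.87 in KY-2 GFP cells against 7.91 and 7.96 in KY-1 GFP cells. KY-2 was above KY-1 in every replicate, by 0.90 ± 0.11 with GFP (SE, limma adjusted p = 0.000108) and 0.91 ± 0.09 with Myb (adjusted p = 1.72e-05). Ifit2 was higher by 0.70 ± 0.11 with GFP and 0.74 ± 0.09 with Myb, whereas Ifit1 and Ifit3 did not pass in either comparison. Mx1 read 4.83, 4.82 and 4.83 in KY-2 Myb cells against 3.99, 3.595 and 3.63 in KY-1 Myb cells, and 5.26 and 5.09 in KY-2 GFP cells against 4.03 and 3.86 in KY-1 GFP cells. The difference was 1.23 ± 0.13 with GFP (adjusted p = 3.16e-05), between levels that are all dim.

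Rsad2 and Cmpk2, adjacent genes in RefSeq, were both higher in KY-2. Rsad2 read 5.90, 5.37 and 5.78 in KY-2 Myb cells against 5.24, 4.85 and 4.93 in KY-1 Myb cells. With GFP it read 5.55 and 5.64 in KY-2 cells against 4.68 and 4.94 in KY-1 cells. Its KY-1 levels were below the median gene with either vector, so the size of its difference is uncertain. The lines did not overlap, by 0.79 ± 0.18 with GFP (SE, limma adjusted p = 0.00572, and 0.0534 without KY-1 GFP arrays 1 and 2) and 0.68 ± 0.14 with Myb (adjusted p = 0.00366). Cmpk2 was higher by 0.38 ± 0.12 with GFP (adjusted p = 0.0386) and 1.07 ± 0.10 with Myb (adjusted p = 9.36e-06). Its GFP call was lost without either KY-1 GFP replicate 3 (0.245), KY-2 GFP replicate 1 (0.183), KY-2 GFP replicate 2 (0.0815), KY-2 Myb replicate 3 (0.052) or the averaged KY-1 Myb arrays (0.0503). With GFP, Oas3, Parp14 and Ly6e were also called lower in KY-2, by -0.56, -0.28 and -0.25. With Myb their differences were -0.15, -0.03 and -0.20 and did not pass (adjusted p = 0.424, 0.843 and 0.0515), and the 2 differences of a gene did not differ from each other by the test (adjusted p = 0.491, 0.468 and 0.924). The Ly6e call was lost when any replicate was left out, with adjusted p of up to 0.231 (without KY-1 GFP replicate 3). The Parp14 call was lost without any one of the GFP replicates (up to 0.126, without KY-2 GFP replicate 2). The Oas3 call was lost without any of these but KY-2 GFP replicate 2 (up to 0.0979, without KY-2 GFP replicate 1).

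**Figure D5:**
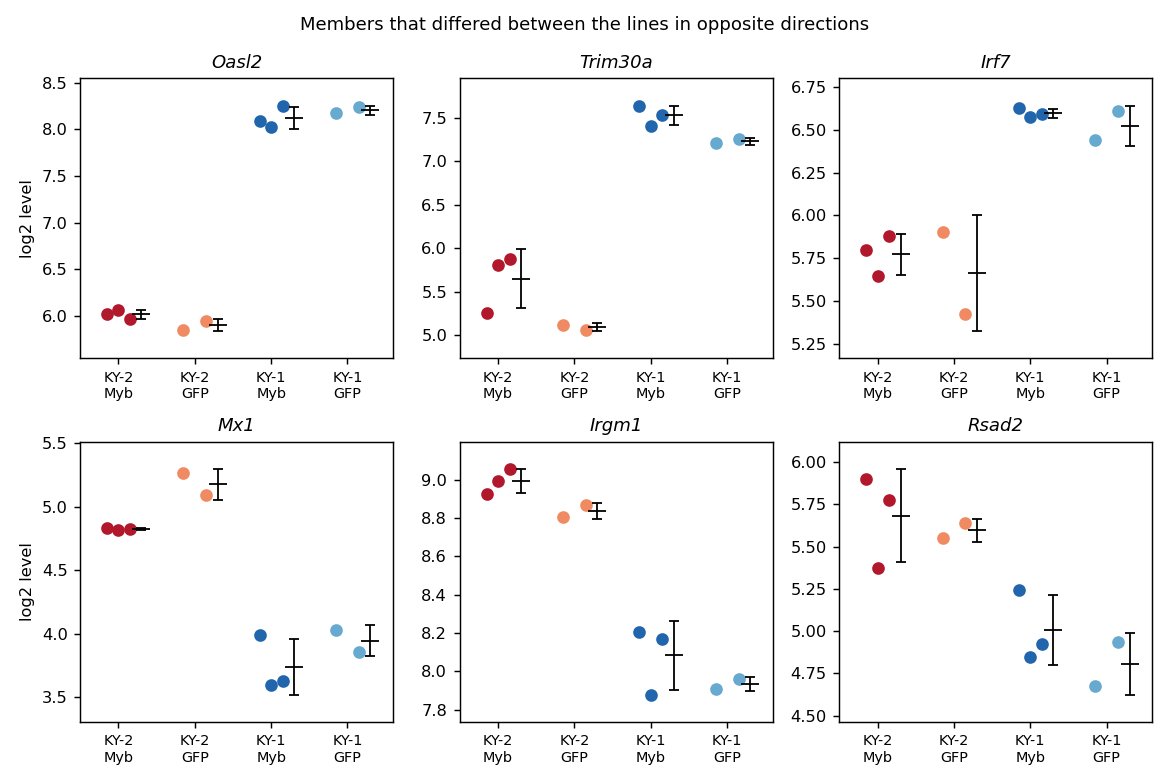
Log2 level in each replicate (points) with the group mean and SD (bars) for members that differed between the lines, with KY-2 to the left of KY-1 and Myb to the left of GFP within a line. Oasl2, Trim30a and Irf7 points lie lower in KY-2, and Mx1, Irgm1 and Rsad2 points lie higher.

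The further pathway genes also differed by line. With GFP, 13 of 87 were higher and 25 lower in KY-2 (43.7%, against 28.9% of all genes, with 13.6% higher and 15.2% lower). With Myb 15 were higher and 32 lower (54%, against 31.6%, with 14.7% higher and 16.9% lower). The share of lower genes exceeded that of all genes, and the share of higher genes was near it. Ifng was higher in KY-2 by 2.28 ± 0.10 with GFP (SE, 4.84-fold, limma adjusted p = 2.77e-08) and 1.94 ± 0.08 with Myb (3.84-fold, adjusted p = 1.45e-08). Ifngr1 was lower, by -1.47 ± 0.10 with GFP and -1.03 ± 0.08 with Myb, and Ifngr2, the second chain of that receptor, by -1.46 ± 0.19 and -1.12 ± 0.15. Iigp1 was lower by -1.85 ± 0.12 with GFP and -1.31 ± 0.09 with Myb. Slfn2, a Schlafen family regulator of lymphocyte quiescence, differed by -2.12 ± 0.11 with GFP and -1.66 ± 0.09 with Myb, and Rnf213 by -1.43 ± 0.08 and -1.21 ± 0.07. Lgals3bp, a secreted galectin-binding glycoprotein, differed by -1.44 ± 0.11 and -1.54 ± 0.09. Among the 40 other interferon-stimulated genes of this list, 15 were lower and 3 higher in KY-2 with GFP (45%, against 28.9% of all genes). With Myb 21 were lower and 3 higher (60%, against 31.6%). Here too, only the share of lower genes exceeded that of all genes.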

How the data were processed

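Total RNA of 12 samples was hybridised to Affymetrix arrays. The values, as the authors deposited them, are log2 expression per probe set. Per the submitters' processing notes they came from Partek with RMA, a method of background correction, normalization between arrays and summary over probes. Options, versions and genome build are not given in the sources used. Of 35556 probe sets, 21789 carried 1 gene symbol and 1621 several, while the annotation did not list the other 12146. The brightest probe set was kept for the 999 genes with several, which left 19938 genes with no filter on dim signals.

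Array pairs of each group were compared by the robust SD of their log2 difference, over 10624 probe sets averaging more than 7. It was 0.0434 for Myb arrays 3 and 4 of KY-1, 0.0469 for GFP arrays 1 and 2 of KY-1 and 0.102 to 0.172 for the rest. Each close pair was averaged. The labels do not state that replicates are separate cultures, and the p-values cover only the spread of these samples, which may be technical. The number of arrays limits the precision.

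Group means were fitted for all 10 replicates in 1 model with limma 3.58.1 in R 4.3.3 (lmFit, contrasts.fit, eBayes), with Benjamini-Hochberg adjustment over all genes and a threshold of 0.05. Group errors are SDs, and errors of differences are SEs of the fit, with 6 residual and 4.89 prior degrees of freedom. The fit was tested on simulated data. The members and lists were chosen with earlier results of these data known. All members are named, with replicate values for those called with the smallest p, and up to 4 called pathway genes or markers per comparison. Alternatives were separate arrays, a replicate block, brighter genes only, repeated quantile normalization, centring on array medians, averages over probe sets, moderation with a trend and robust settings, only the compared groups, and leaving out each replicate. Same-numbered arrays of different groups had correlations of their deviations from the group means from -0.465 to 0.278. The main fit did not pair samples by number. In groups of 2 to 4 arrays the deviations are tied to each other, so these values cannot show whether same-numbered arrays belong together.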

Additional observations from a re-analysis of the deposited data

Results flagged for a closer look

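Some genes were picked out because the effect of Myb differed between the lines by the test of the difference itself (KY-2 minus KY-1, limma, adjusted over all genes). Among the interferon-stimulated genes this was Zbp1, at -0.72 on the log2 scale. The other 5 are markers of the cell type. Among NK markers, the difference was 1.86 for Ncr1, the receptor NKp46, which changed by -0.10 in KY-2, where its mean level with either vector was below the median gene, and fell by 1.96 in KY-1. It was -1.003 for Prf1, perforin, which fell by 0.82 in KY-2 and changed by 0.18 in KY-1. Among T cell markers, the difference was -0.84 for Cd3d, which fell by 0.73 in KY-2 and changed by 0.12 in KY-1. It was -2.63 for Cd3g, which changed by -0.11 in KY-2 and rose by 2.52 in KY-1, where its GFP level was below the median gene. It was 0.67 for Lat, an adaptor of T cell receptor signalling that NK cells also use, which rose by 0.50 in KY-2 and changed by -0.17 in KY-1. Myb itself rose by 4.69 in KY-2 and 1.58 in KY-1. The part of these unlike Myb steps in the differences above was not tested. Groups of 2 or 3 replicates are too small for a search for single outlying samples.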

How the results depend on the processing

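No called change of a member reversed its sign in any alternative run. In the average, the calls of Cmpk2, Usp18, Bst2 and Ddx58 held in every alternative they entered, where Cmpk2 is too dim for the brighter-gene fit, and that of Gbp3 did not. Between the lines, 15 of 23 calls with GFP and 19 of 20 with Myb held in every one. The number of members called rose with all 12 arrays as separate replicates to 6 in KY-1, 5 in KY-2, 9 in the average and 2 in the difference between lines. Among brighter genes it was 4 in KY-1 and 5 in KY-2. Trended and robust moderation gave 5 in KY-1, 6 in KY-2 and 8 in the average. Median centring gave 1 in KY-1, and the fit of KY-1 arrays alone gave 0. Leaving out 1 replicate gave 0 to 2 in KY-1, 1 to 3 in KY-2, 4 to 5 in the average, 0 to 1 in the difference, 16 to 22 between lines with GFP and 19 to 21 with Myb. The members' median was then 0.044 to 0.094 in KY-2, -0.279 to -0.185 between lines with GFP and -0.222 to -0.169 with Myb. Among brighter genes it was -0.339 with GFP and -0.50 with Myb, and after median centring -0.232 with Myb. A block of replicate number, fitted on all 12 arrays, gave 2 members in KY-1, 2 in KY-2, 5 in the average and 20 in each comparison of the lines. It ended the calls of Gbp3 in KY-1 (adjusted p = 0.0505) and Bst2 in KY-2 (0.0536), and between the lines with GFP those of Dhx58, Cmpk2 and Ly6e. The fit of the compared groups only cannot be made for the average and the difference, which use all groups. The absence of detection calls limits what can be said of dim members.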
